A study of Mus musculus with 6 samples.

Results

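Interferon-high T cells are described here as T cells in which several transcripts of the interferon response were found together. They were taken from the pancreatic lymph nodes of 6 mice, profiled cell by cell on the droplet platform of 10x Genomics, in which every captured molecule carries a unique molecular identifier (UMI). A cell counted as a T cell when Cd3d, Cd3e and Cd3g together had at least 2 UMIs and when neither Cd79a, a B cell gene, nor Foxp3, the regulator of regulatory T cells, had a UMI. It counted as interferon-high when at least 3 of the 7 genes Ifit1, Ifit3, Isg15, Usp18, Rsad2, Oasl2 and Rtp4 had a UMI. By this rule 292 cells were members, out of 35294 T cells and 56310 cells of all types, which is 0.827% of the T cells (exact binomial 95% interval 0.735 to 0.927%, counting error only).

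Every mouse carried a floxed gene. The 3 Cre-negative mice lacked the CD4-Cre transgene and gave 42, 46 and 35 members, and the 3 Cre-positive mice carried it and gave 72, 54 and 43. CD4-Cre is driven by regulatory DNA of Cd4 and deletes floxed DNA in developing T cells that pass through a stage with Cd4, so CD8 T cells are reached as well as CD4 T cells. The labels used here name no strain, sex, age or treatment, and no mouse was without the floxed allele. Each library came from a different mouse, and the labels give the replicate numbers no meaning beyond naming the mice. The libraries held 8209 to 10936 barcodes and 47149014 to 61321105 UMIs, with a median of 4331 to 5681.5 UMIs per cell kept, and any 2 libraries shared 16 to 39 barcodes.

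Type I interferons bind the receptor chains Ifnar1 and Ifnar2, whose kinases Jak1 and Tyk2 phosphorylate transcription factors that include Stat2. With Irf9 these form a complex that binds the interferon-stimulated response element, a repeat of GAAA-type letters in gene promoters. Interferon gamma acts through Ifngr1 and Ifngr2, with guanylate-binding proteins and immunity-related GTPases among its known targets, and the targets of both types overlap. The proteins made include direct antiviral effectors, sensors of foreign nucleic acid, parts of antigen presentation on MHC class I, and inhibitors that end the signal. Naive T cells in resting lymph nodes are known to hold small subsets with such transcripts.

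The response element was looked for by its letters in the promoters of the rule genes and of the genes described below. The search covered the 250 bases before each RefSeq gene start on GRCm38.p6 and the pattern GAAANNGAAA or, on the other strand, TTTCNNTTTC. The pattern was present in 4 of the 5 rule genes that had an entry, while Oasl2 held none in this window. Usp18 and Rtp4 had no entry. Across all genes with an entry, 936 of 27025 (3.46%) held it, and across all windows 978 of 32851 (2.98%). The stretches around the match in the rule genes are shown because these genes define the cells, in the direction of transcription, with each match in capitals and with overlapping matches run together in Isg15.
Ifit1: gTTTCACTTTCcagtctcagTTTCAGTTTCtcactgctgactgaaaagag
Ifit3: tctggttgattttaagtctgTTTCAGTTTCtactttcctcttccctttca
Isg15: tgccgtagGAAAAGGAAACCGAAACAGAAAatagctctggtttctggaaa
Rsad2: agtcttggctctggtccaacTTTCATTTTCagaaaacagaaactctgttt
The Ifit1 stretch is chr19:34640784-34640833 on the plus strand and the Ifit3 stretch chr19:34583387-34583436 on the plus strand. The Isg15 stretch is chr4:156200855-156200904 on the minus strand and the Rsad2 stretch chr12:26456543-26456592 on the minus strand. All 4 stretches lie upstream of the annotated start of their gene.

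Genes outside the rule carried the same letters. Of the 15 genes that stood out most in CD4 members (chosen as described below), 12 had a promoter entry and 6 of these held the pattern, as did 4 of 10 with an entry among the 15 that stood out most in CD8 members. Of the genes that were lowest in members, 1 of 8 and 1 of 10 held it. Within the functional lists it was found in 13 of 36 antiviral effectors, 6 of 13 nucleic acid sensors, 9 of 10 interferon gamma GTPases, 3 of 16 genes of MHC class I presentation and 3 of 21 genes of interferon receptors and signalling. The following stretches belong to genes whose levels are given further on: a membrane tether of budding virus (Bst2), a helicase-like effector (Ddx60), 2 GTPases (Gbp7 and Igtp), a Schlafen family member (Slfn8) and a tripartite motif protein (Trim30a).
Bst2: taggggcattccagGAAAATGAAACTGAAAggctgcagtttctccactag
Ddx60: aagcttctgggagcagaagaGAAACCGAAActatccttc
Gbp7: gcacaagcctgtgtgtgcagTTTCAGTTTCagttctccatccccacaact
Igtp: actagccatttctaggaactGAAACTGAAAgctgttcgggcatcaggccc
Slfn8: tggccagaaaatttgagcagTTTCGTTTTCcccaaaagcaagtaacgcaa
Trim30a: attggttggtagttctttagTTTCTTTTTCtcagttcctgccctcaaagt
Their coordinates on GRCm38.p6 are chr8:71537567-71537616 (minus strand), chr8:61928048-61928086 (plus), chr3:142530263-142530312 (plus), chr11:58199502-58199551 (plus), chr11:83020829-83020878 (minus) and chr7:104465200-104465249 (minus). A match of letters is a description of the window and not a measured binding site.

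The 7 rule genes were not found equally often in the members. Isg15, a ubiquitin-like modifier, had a UMI in 250 of the 292 members, Rtp4, a receptor transporter protein, in 225, and Ifit1, which binds viral RNA, in 208. Ifit3, the partner of Ifit1, was found in 113 members and Usp18, the protease that removes Isg15 and dampens the receptor, in 101. Oasl2, of the oligoadenylate synthetase family, was found in 93 members and Rsad2, the enzyme viperin, in 24. Isg15, Rtp4 and Ifit1 were found together in 122 members (41.8%), 148 members (50.7%) held 2 of these 3, and 22 held fewer. Among all T cells of the rule, members included, 10.8% had an Isg15 UMI, 5.77% an Rtp4 UMI and 2.73% an Ifit1 UMI. B cells, which can also respond to interferon, had Isg15 in 3.23%, Rtp4 in 0.789% and Ifit1 in 0.239% of cells, at a median of 4366.5 UMIs per cell against 5185 in T cells.

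The members formed the upper end of a steep decline in the number of rule genes per cell. None of the 7 was found in 27994 T cells, 1 in 6099, 2 in 909, 3 in 185 and 4 or more in 107, with 6 the highest number in a cell. The 909 cells just outside the limit were thus more numerous than all members. A member held 3 to 46 UMIs of the rule genes, with a median of 5. The members, 0.827% of T cells, held 451 of the 1357 Ifit1 UMIs of T cells (33.2%), 172 of the 419 Ifit3 UMIs (41.1%) and 675 of the 5344 Isg15 UMIs (12.6%). Most Isg15 transcripts of the node's T cells thus lay in cells with fewer than 3 of the genes.

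Since the rule chose the cells by these genes, their levels are given as a description. Levels are CPM, the UMIs of a gene summed over the cells of a class in 1 mouse, divided by all UMIs of that class and scaled to a common total. CD4 members are those with a Cd4 UMI and none of Cd8b1, and CD8 members those with a Cd8b1 UMI and none of Cd4. Ifit1 stood at 236, 337 and 109 CPM in Cre-negative 1 to 3 and 182, 206 and 213 CPM in Cre-positive 1 to 3 in CD4 members, against 3.81 to 5.39 CPM in the other CD4 T cells of the same mice. In CD8 members Ifit1 stood at 158, 203 and 359 CPM in Cre-negative 1 to 3 and 209, 102 and 443 CPM in Cre-positive 1 to 3, against 2.84 to 5.33 CPM in other CD8 T cells. No value of a member class overlapped that of the other T cells, which the rule brings about. Isg15 stood at 193, 552 and 164 CPM in Cre-negative 1 to 3 and 467, 259.6 and 484 CPM in Cre-positive 1 to 3 in CD4 members, where the other CD4 T cells had 20.8 to 30.2 CPM, and at 189 to 646 CPM in CD8 members, where other CD8 T cells had 19.1 to 29.9 CPM. Rtp4 averaged 167 ± 40.4 against 9.19 ± 2.48 CPM (mean ± SD, n = 6 mice) in CD4 T cells and 173 ± 68.7 against 11.7 ± 2.82 CPM in CD8 T cells. Ifit3 averaged 71.5 ± 40.1 CPM in CD4 and 105 ± 48.9 CPM in CD8 members, and Rsad2 was above its level in other T cells in 5 of 6 mice in the CD4 and 4 of 6 in the CD8 class.

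The share of T cells that were interferon-high overlapped between the genotypes in all T cells and in both lineages. It was 0.906, 0.840 and 0.544% in Cre-negative 1 to 3 and 1.18, 0.764 and 0.772% in Cre-positive 1 to 3. Cre-positive 1 had the highest and Cre-negative 3 the lowest share, and the groups overlapped (0.763 ± 0.193 against 0.905 ± 0.236%, mean ± SD, exact two-sided permutation p = 0.6, n = 3 per group). Among CD4 T cells the shares were 0.595, 1.03 and 0.453% in Cre-negative 1 to 3 and 1.07, 0.898 and 0.850% in Cre-positive 1 to 3 (exact permutation p = 0.3, n = 3 per group). Cre-negative 2 lay among the Cre-positive mice, so these groups overlapped too. Among CD8 T cells they were 1.60, 0.909 and 0.419% in Cre-negative 1 to 3 and 1.41, 0.725 and 0.625% in Cre-positive 1 to 3, also overlapping (exact permutation p = 1.0, n = 3 per group). Adjusted over the 5 shares compared, each Benjamini-Hochberg p was 1.0, and 3 mice against 3 cannot give an exact p below 0.1. The sign of the CD8 difference turned in 5 alternatives, 3 of which left out 1 mouse.

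Cells outside the rule gave the setting for these shares. T cells with a Foxp3 UMI, which the rule leaves out, met the limit of 3 genes in 28 of 2254 cells, at 1.45, 1.23 and 0.824% of these cells in Cre-negative 1 to 3 and 2.09, 1.13 and 0.573% in Cre-positive 1 to 3. B cells met it in 13 of 11278 cells (0.115%), at 0.0812, 0.121 and 0% in Cre-negative 1 to 3 and 0.231, 0.0641 and 0.122% in Cre-positive 1 to 3. Cre-positive 1 had the highest share in all T cells, CD4 T cells, Foxp3-positive T cells and B cells, and Cre-negative 1 the highest in CD8 T cells. Deeper cells pass a rule on detected genes more easily. Members had a median of 5858.5 UMIs against 5179 in other T cells, and after each cell was thinned to 2000 UMIs, which left out 266 Cre-negative and 158 Cre-positive T cells, the share was 0.145 ± 0.0460% for the Cre-negative mice and 0.195 ± 0.0899% for the Cre-positive mice.

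**Figure D1:**
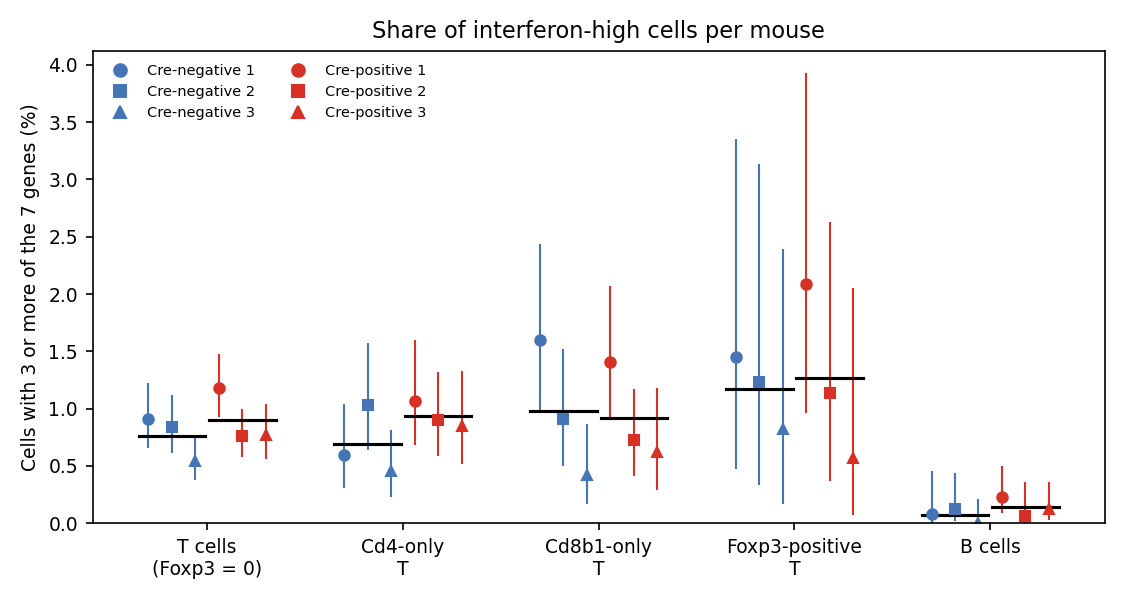
Share of cells (%) with 3 or more of the 7 rule genes in each class, 1 point per mouse with its exact binomial 95% interval, horizontal bars at the group means. Cre-negative and Cre-positive mice overlap in every class, and Cre-positive 1 has the highest share of all T cells at 1.18%.

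By coreceptor, 111 members were CD4, 92 were CD8, 12 had UMIs of both Cd4 and Cd8b1, and 77 of neither. Cre-negative 1 gave 12 CD4 and 21 CD8 members and Cre-negative 2 gave 21 and 14, while Cre-negative 3 gave 11 and 7. Cre-positive 1 to 3 gave 23, 25 and 19 CD4 members and 25, 16 and 9 CD8 members. CD8 members outnumbered CD4 members in Cre-negative 1 and Cre-positive 1, and CD4 members in the other 4 mice. Members without either coreceptor had a median of 4877 UMIs, below the 5791 of CD4 and the 6709 of CD8 members. Of the 12 members with both coreceptors, 5 were among the cells that Scrublet scored highest as doublets (41.7%, against 30.6% of other T cells with both), compared with 8 of 111 CD4 and 6 of 92 CD8 members. Doublets were kept, as the rule does not remove them.

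The label was set against a list of 15 T cell markers, some of which the rule uses. In CD4 members the list summed to 8750 to 9231 CPM per mouse, against 8427 to 9085 CPM in other CD4 T cells. In CD8 members the sum ranged more widely, at 6478 to 8763 CPM against 7427 to 7948 CPM, and Trac was lower in 6 of 6 mice. In Cre-negative 1, 1 CD8 member held 43490 and another 24416 of the 209310 UMIs of that class. The deeper cell also held 955 UMIs of a list of monocyte and macrophage markers. Both cells count in all CD8 levels given here unless said otherwise. Cd8a was found in 80 of 92 CD8 members (87.0%) and in 1 of 111 CD4 members. Trdc, of the gamma-delta receptor, had a UMI in 9 of 292 members (3.08%, against 3.63% of other T cells). Klrb1c, the natural killer receptor NK1.1, had one in none, which allows a share of up to 1.03%, and in 0.151% of other T cells. The proliferation gene Mki67 was found in 6 members (2.05%, against 1.16%). The median mitochondrial share was 4.19% in members and 4.34% in other T cells.

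Averaged over mice, antiviral effectors that the rule did not use rose with each further step in the number of rule genes. Of 45 such genes listed, 44 were in the files, and their summed level was 1357 ± 116 CPM (mean ± SD, n = 6 mice) in T cells with none of the 7 rule genes and 1678 ± 213 CPM with 1. It was 2325 ± 331 CPM with 2, 3358 ± 546 CPM with 3 and 4874 ± 709.6 CPM with 4 or more. The cells just outside the limit thus already stood above those with none, and the members just inside stood below those with more of the genes. CD8 T cells showed the same order, with 1263 ± 111, 1539.6 ± 203, 2013 ± 323, 2884 ± 162 and 4389 ± 586 CPM. In CD4 T cells the levels were 1421 ± 134, 1798 ± 207, 2631 ± 409, 3519 ± 672 and 5646 ± 2809 CPM. The wide spread in the last class came from few cells, since Cre-negative 3 had 1 such CD4 cell at 10934 CPM and Cre-negative 1 had 3 at 2919 CPM. Some single mice left the order of the means. From 2 to 3 rule genes, Cre-negative 2 fell from 2515 to 2441 CPM in all T cells and from 2651 to 2246 CPM in CD4 T cells. From 3 to 4 or more, CD4 T cells fell from 4037 to 2919 CPM in Cre-negative 1 and from 4044 to 3787 CPM in Cre-positive 3.

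Mouse by mouse, the summed effector level in all members was 4224, 3786 and 3746 CPM in Cre-negative 1 to 3 and 3561, 4196 and 4084 CPM in Cre-positive 1 to 3. In the other T cells of the same mice it was 1460, 1472 and 1311 CPM and 1733, 1374 and 1360 CPM. Cre-positive 1, which had the largest share of members, had the highest level among other T cells and the lowest among members. The lowest member value lay above the highest value of other T cells.

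**Figure D2:**
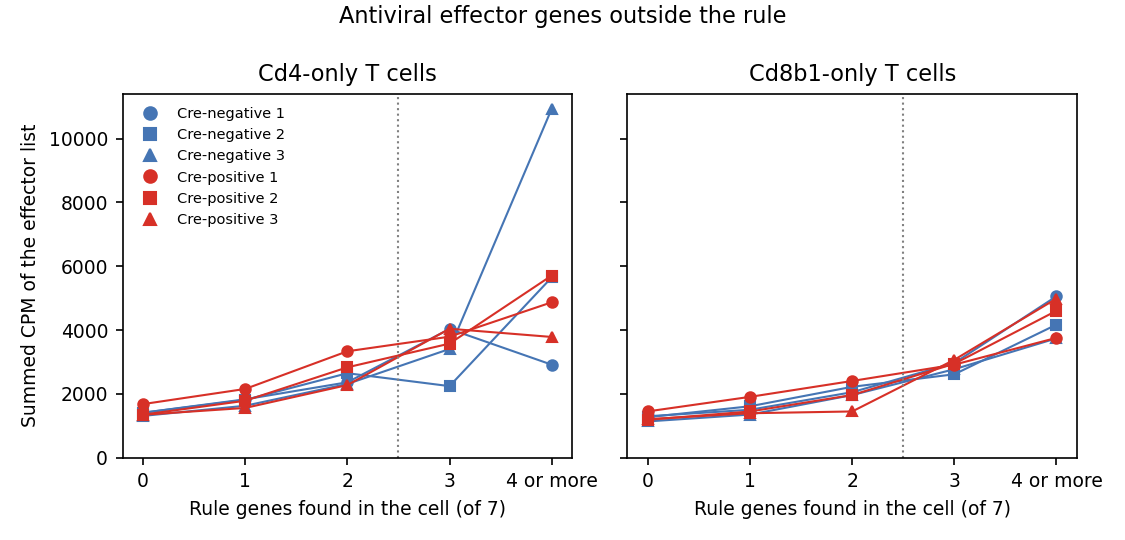
Summed level (CPM) of the effector genes outside the rule against the number of rule genes found in a cell, for CD4 and CD8 T cells, 1 line per mouse. The dotted line marks the limit of 3 genes, and the mean level climbs from 1421 CPM at none to 3519 CPM at 3 in CD4 T cells and from 1263 to 2884 CPM in CD8 T cells.

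The gene lists below were compared within each mouse, members against the other T cells of the same lineage. Ratios are log2 of (CPM + 1) in members over (CPM + 1) in those other T cells. Adding 1 draws the ratio of a low gene toward 0. Where a mouse's members held no UMI of a gene that its other T cells held, the ratio is negative and lowers the mean over mice. Because cells were chosen by expression, these ratios are a description without a test, and a gene is called higher or lower only where all 6 mice lay on 1 side. Genes with a mean of at least 5 CPM over T cells were counted as measured. Across all measured genes, 2.06% were higher in 6 of 6 mice in CD4 members (174 of 8436) and 1.73% in CD8 members (143 of 8265), and 2.92% and 3.13% were lower. Over all members together, whatever the coreceptor, 3.11% of measured genes were higher and 3.27% lower in 6 of 6 mice, against 21 of 26 effectors, 7 of 10 sensors, 13 of 15 interferon gamma GTPases and 14 of 19 class I genes that were higher. The median ratio over all measured genes was −0.26 in CD4 and −0.42 in CD8 members, against −0.08 over all members together. The list of T cell markers had medians of −0.03 in CD4 and −0.02 in CD8 members. A ratio near 0 is therefore not read as above or below the typical gene of its level.

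In the signalling chain, the inducible factors stood apart from the receptors. Irf7, the factor that amplifies interferon genes (chr7:141262706-141266481 on mm10, minus strand), stood at 85.99, 161 and 54.7 CPM in Cre-negative 1 to 3 and 87.1, 114 and 88.1 CPM in Cre-positive 1 to 3 in CD4 members, against 14.7 to 20.9 CPM in other CD4 T cells. In CD8 members it stood at 62.1, 90.2 and 71.8 CPM in Cre-negative 1 to 3 and 87.8, 87.2 and 107 CPM in Cre-positive 1 to 3, against 14.6 to 20.9 CPM. All 12 member values lay above every value of other T cells of the lineage, with mean log2 ratios of 2.38 and 2.27. Irf9, which anchors the complex on DNA, was higher in 6 of 6 mice in CD8 members (91.2 ± 32.1 against 41.98 ± 3.14 CPM) and in 5 of 6 in CD4 members (105 ± 37.2 against 45.4 ± 2.90 CPM). Stat2 was above in 5 of 6 mice in CD4 members (38.5 ± 22.5 against 10.5 ± 1.12 CPM).

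The receptor chains and kinases lay close to their level in other T cells. Ifnar1 averaged 53.02 ± 24.5 against 47.5 ± 2.25 CPM in CD4 T cells (ratio 0.01), and Ifnar2 48.7 ± 18.6 against 41.1 ± 2.26 CPM (ratio 0.17). Jak1, the kinase bound to Ifnar2, had a ratio of 0.06 in CD4 and −0.08 in CD8 members. Ifngr1, the ligand-binding chain of the interferon gamma receptor, was higher in 6 of 6 mice in CD4 members (126 ± 21.9 against 91.6 ± 8.84 CPM, ratio 0.45) and in 2 of 6 in CD8 members. Of the 21 measured genes of this list, 3 were higher in CD4 members (Irf7 and Ifngr1 among them) and 3 in CD8 members (Irf7 and Irf9 among them), none was lower, and the list's median ratio was 0.06 and −0.08. Among the inhibitors, Socs1, which blocks Jak kinases, was higher in 6 of 6 mice in CD4 members (92.98 ± 47.8 against 53.05 ± 5.56 CPM) and in 5 of 6 in CD8 members (79.7 ± 40.3 against 61.6 ± 8.33 CPM). It was the only one of 10 measured inhibitors higher in CD4 members, and none of 9 was in CD8 members.

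Antiviral effectors outside the rule made up the group with the highest median. In both lineages 16 of 27 measured effectors were higher in members, with a median ratio of 1.18 in CD4 and 1.19 in CD8. The list was drawn up with earlier results of these data known, so the count is not independent evidence of its direction. Xaf1, a promoter of cell death (chr11:72301629-72313733 on mm10, plus strand), stood at 161, 76.7 and 123 CPM in Cre-negative 1 to 3 and 119, 135 and 103 CPM in Cre-positive 1 to 3 in CD4 members, against 17.7 to 23.8 CPM in other CD4 T cells (ratio 2.40). All 6 values lay above the other cells. Zbp1, a sensor of Z-form nucleic acid that can start necroptosis, averaged 156 ± 23.02 against 45.7 ± 5.19 CPM in CD4 and 193 ± 84.7 against 44.9 ± 4.75 CPM in CD8 T cells. Isg20, an exonuclease for single-stranded RNA, averaged 50.6 ± 19.3 against 11.5 ± 1.10 CPM in CD4 and 45.7 ± 26.2 against 8.84 ± 1.22 CPM in CD8 T cells. Bst2, whose promoter stretch is shown above, stood at 236, 268 and 260.0 CPM in Cre-negative 1 to 3 and 356, 319 and 176 CPM in Cre-positive 1 to 3 in CD4 members and at 299 ± 67.5 CPM in CD8 members. Its level in other T cells was 63.8 to 105 CPM and 85.7 to 144 CPM, below every member value of the lineage.

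Further effectors were higher in both lineages. Ifi27l2a, a small membrane protein of the response, averaged 1455 ± 202 against 426 ± 92.9 CPM in CD4 and 785 ± 232 against 231 ± 58.9 CPM in CD8 T cells. Parp9 and Parp14, ADP-ribosyltransferases, had ratios of 1.35 and 1.32 in CD4 and 1.68 and 1.63 in CD8 members. Trim30a averaged 152 ± 39.98 CPM in CD4 and 174 ± 98.1 CPM in CD8 members, where other T cells had 42.2 to 53.6 CPM and 45.9 to 60.4 CPM. Ddx60 was higher in 6 of 6 mice in CD4 members (54.3 ± 30.2 against 12.3 ± 2.16 CPM) and in 5 of 6 in CD8 members (28.3 ± 21.1 against 10.8 ± 1.59 CPM). Ifit2, the nearest relative of the rule genes Ifit1 and Ifit3, was above in 5 of 6 mice in CD4 and 4 of 6 in CD8 members. Ifi27, a mitochondrial protein of the response, was the only effector lower in CD4 members (57.2 ± 10.4 against 80.3 ± 10.5 CPM). Tnfsf10, the death ligand TRAIL, had ratios of 0.03 and 0.65 and was not on 1 side in either lineage.

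Sensors of nucleic acid followed, with 5 of 10 measured genes higher in each lineage and median ratios of 1.01 and 0.87. Ifih1, the cytosolic RNA sensor MDA5, averaged 35.2 ± 9.94 against 7.54 ± 0.711 CPM in CD4 T cells and 18.3 ± 7.22 against 5.07 ± 0.616 CPM in CD8 T cells. Ddx58, the RNA sensor RIG-I, averaged 92.1 ± 23.8 against 35.6 ± 1.82 CPM and 97.4 ± 34.2 against 34.8 ± 2.12 CPM. Among the DNA-binding family around Ifi203, Ifi203 itself (592 ± 73.8 against 267 ± 17.4 CPM in CD4 T cells) and Mndal (ratios 0.96 and 0.97) were higher in both lineages. Tmem173, the adaptor STING, had ratios of 0.05 and −0.30 and Aim2, a DNA sensor of the inflammasome, −0.48 and 0.38, with mice on both sides.

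The Schlafen, Phf11, Ms4a4 and Ly6 families, which are known as interferon-responsive in T cells, had 8 of 12 measured members higher in CD4 and 6 of 11 in CD8 members, with medians of 0.71 and 0.86. Slfn5 stood at 115, 169 and 144 CPM in Cre-negative 1 to 3 and 54.9, 58.1 and 76.3 CPM in Cre-positive 1 to 3 in CD8 members, against 7.53 to 17.00 CPM in other CD8 T cells (ratio 2.76). In CD4 members it stood at 301, 284 and 151 CPM in Cre-negative 1 to 3 and 246, 249 and 36.7 CPM in Cre-positive 1 to 3, against 30.04 to 47.9 CPM in other CD4 T cells. Slfn5 was higher in every mouse, and least so in Cre-positive 3 among CD4 members. Phf11c averaged 41.8 ± 14.4 against 8.24 ± 1.53 CPM in CD4 T cells, and Slfn8 82.2 ± 6.84 against 32.4 ± 3.81 CPM in CD8 T cells. Ly6a, the surface antigen Sca-1, averaged 574 ± 150.2 against 237 ± 37.8 CPM in CD4 and 1519 ± 418 against 712 ± 91.03 CPM in CD8 T cells. Reads of near-identical copies in these families and among the GTPases and class I genes could have been split or dropped in counting.

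GTPases named for interferon gamma were higher in 6 of 14 measured cases in CD4 and 9 of 15 in CD8 members, with medians of 0.85 and 0.92. Igtp (Irgm3) averaged 151 ± 30.4 against 52.03 ± 8.83 CPM in CD4 and 129 ± 33.4 against 51.9 ± 9.18 CPM in CD8 T cells. Gbp7 averaged 163 ± 49.8 against 59.9 ± 6.45 CPM in CD4 T cells and had a ratio of 0.83 in CD8 members. Gbp6 averaged 50.9 ± 27.8 against 10.98 ± 1.99 CPM in CD8 T cells, higher in 6 of 6 mice, while in CD4 members it was above in 4 of 6 (ratio 0.46). Iigp1 was higher in 6 of 6 mice in CD4 members (ratio 1.07) and above in 4 of 6 in CD8 members (ratio −0.20).

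Genes of MHC class I presentation were higher by smaller steps. In CD4 members 10 of 19 and in CD8 members 8 of 19 were higher, with medians of 0.37 and 0.26. Nlrc5, the transactivator of class I genes, had ratios of 0.90 and 0.56, and the nonclassical class I gene H2-T23 averaged 231 ± 32.7 against 132 ± 10.5 CPM in CD4 T cells. The peptide transporter gene Tap1 had a ratio of 0.63 in CD4 members and 0.53 in CD8 members, where it was above in 5 of 6 mice. B2m, the light chain of class I, and the classical gene H2-K1 were higher in 6 of 6 mice in both lineages at ratios of 0.25 and 0.23 in CD4 and 0.22 and 0.21 in CD8 members.

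**Figure D3:**
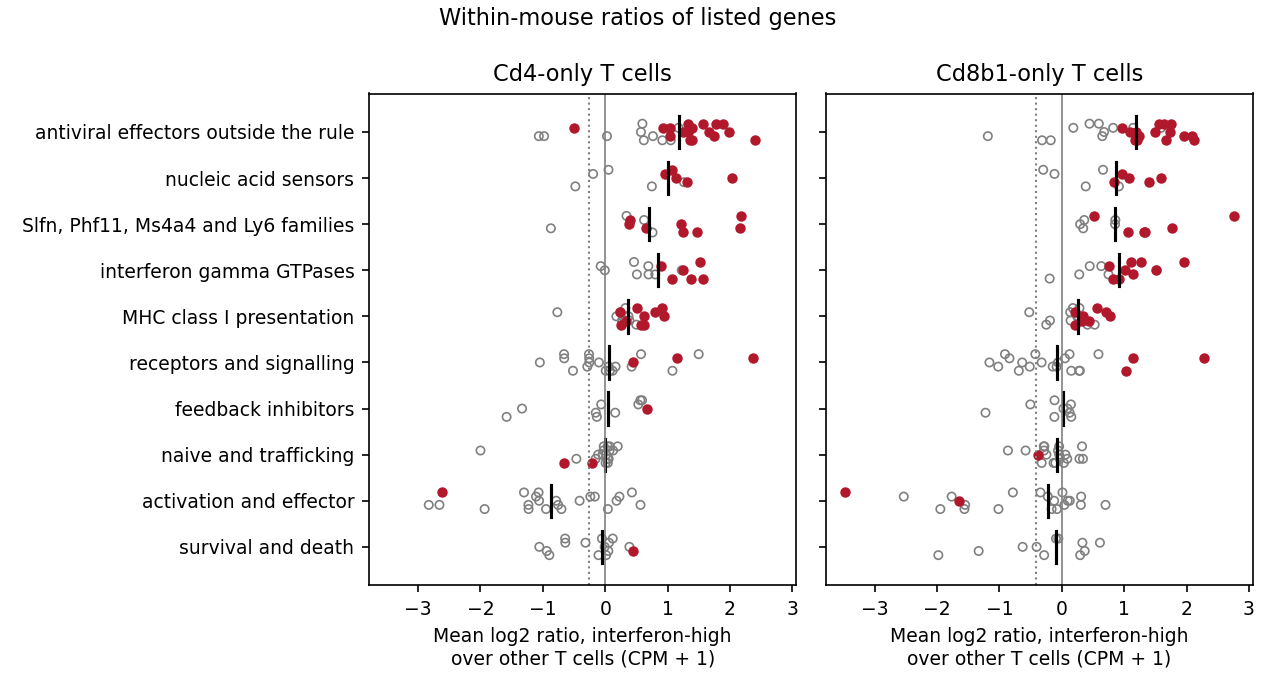
Mean log2 ratio (CPM + 1) of members over other T cells of the same mice for each measured gene of 10 lists, in CD4 and CD8 T cells. Filled points lie on 1 side in 6 of 6 mice, black bars are list medians and the dotted line is the median of all measured genes, at −0.26 and −0.42, and effectors have the highest list median in both lineages.

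Genes of naive state and trafficking differed little. None of 20 measured was higher in either lineage and the medians were −0.01 and −0.08. Ccr7, the chemokine receptor that guides T cells into lymph nodes, had ratios of −0.04 and −0.25. Lef1 and Cxcr4 were lower in CD4 members (594 ± 83.2 against 683 ± 61.9 CPM and 152 ± 53.3 against 230.0 ± 43.4 CPM) and Satb1, a chromatin organiser, in CD8 members (378 ± 113 against 467 ± 55.8 CPM). Cd69, the early activation antigen known to be raised by type I interferon, was above in 5 of 6 mice in each lineage, at 485 ± 159 against 407 ± 52.2 CPM in CD4 T cells.

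Among activation and effector genes of T cells, none of 22 measured in CD4 and 21 in CD8 members was higher. Ifng was lower in CD4 members (1.22 ± 3.00 against 8.48 ± 4.69 CPM), where 1 of 111 members had a UMI (0.90%, against 1.43% of other CD4 T cells). Among CD8 members 4 of 92 had an Ifng UMI (4.35%, against 1.83% of other CD8 T cells). Gzma and Tnfrsf9 were lower in CD8 members, where neither had a UMI in any of the 92 cells. The CD4 sums held 73089 to 184906 UMIs per mouse and the CD8 sums 41792 to 209310, so a gene of low level can be at 0 in them. Cd44, a marker of antigen experience, had ratios of 0.23 and −0.12, and Cd274, the ligand PD-L1, 0.18 and 0.70. Among genes of survival and death, Casp8, the initiator caspase, was higher in 6 of 6 mice in CD4 members (ratio 0.44) and above in 5 of 6 in CD8 members.

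Transcripts of the interferons themselves were rare in the captured cells. No UMI of Ifnb1 was found in 56310 cells, which allows a share of cells with a UMI of up to 0.00533%. Of the Ifna genes, Ifna2 had 1 UMI, in a T cell outside the members, and the others none. Ifnk had 356 UMIs, of which 3 lay in members. Ifng had 1690 UMIs in all cells. Members held 23 of these in 7 cells (2.40% of members, against 1.46% of other T cells), and 16 of the 23 came from Cre-positive 3, with 14 in 1 cell.

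Outside the rule genes, 15 genes per lineage were named by the within-mouse ratio that came nearest to 0 among the 6 mice, so that a gene had to be high in every mouse. In CD4 members they were Irf7, Phf11c, Xaf1, Ifih1, Zbp1, Isg20, Ddx60, Ifi27l2a, Igtp, Trim30a, Bst2, Ly6a, Ifi203, Gbp7 and Ddx58, and all 15 belonged to a list above. In CD8 members they were Irf7, Slfn5, Parp9, Ifi27l2a, Isg20, Gbp6, Slfn8, Zbp1, Parp14, Trim30a, Epsti1, Igtp, Ddx58, Helz2 and Ttc39b, of which 13 did. Irf7 led in both, and 7 genes were named in both lineages (46.7% of each). The 2 outside the lists were Epsti1, a stromal interaction protein known to respond to interferon (311 ± 79.4 against 119 ± 11.05 CPM), and Ttc39b, of the tetratricopeptide repeat family (64.3 ± 14.3 against 26.7 ± 2.30 CPM). The lists were drawn up with earlier results of these data known, so the number of named genes in them is not independent evidence.

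**Figure D4:**
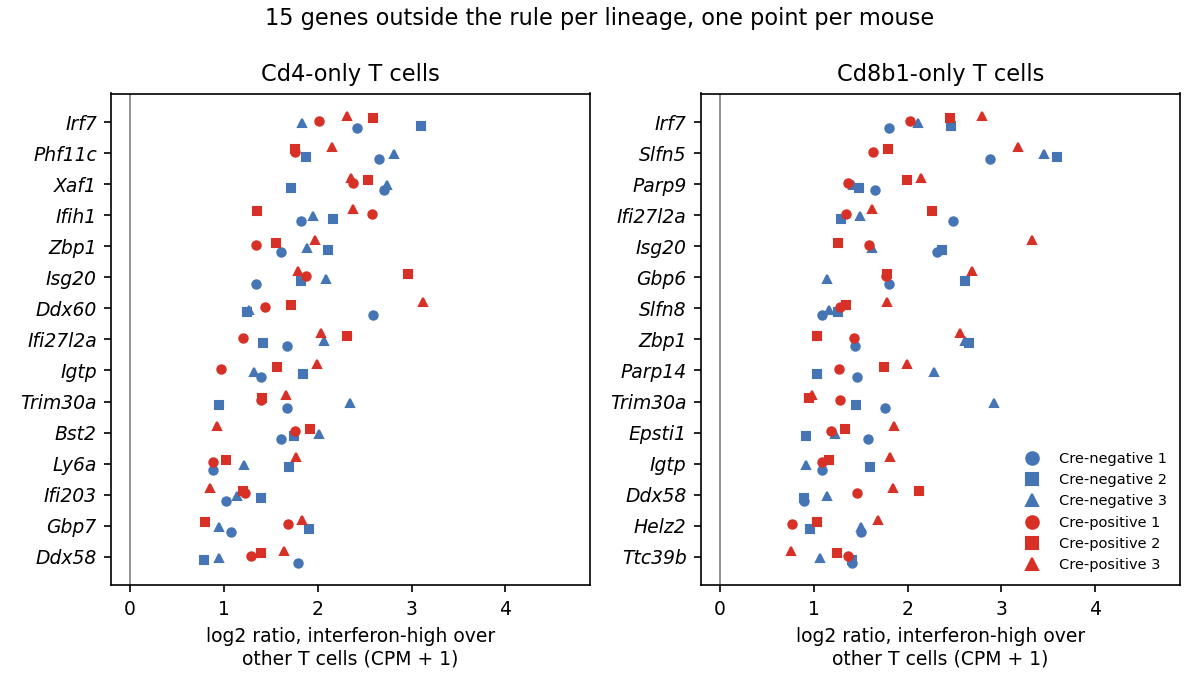
Within-mouse log2 ratio (CPM + 1) of members over other T cells for the 15 genes named in CD4 and in CD8 members, 1 point per mouse. All points lie to the right of 0 by construction, and Irf7 has mean ratios of 2.38 and 2.27.

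The 10 genes named as lowest shared no member between the lineages. In CD4 members they included Lyz2 (4.68 ± 6.11 against 82.05 ± 37.4 CPM), H2-Ab1 (10.1 ± 13.2 against 57.3 ± 18.7 CPM) and Cd74 (42.8 ± 29.6 against 137 ± 34.2 CPM), which are genes of myeloid and antigen-presenting cells. A Cd74 UMI was found in 26.1% of CD4 members and in 20.2% of other CD4 T cells. Summed over the list of monocyte and macrophage markers, CD4 members had 0 to 15.3 CPM per mouse and other CD4 T cells 55.4 to 175 CPM, and over the list of B cell markers 123 to 452 against 425 to 642 CPM. The list of 11 plasmacytoid dendritic cell markers, which holds Bst2, summed to 330.2 to 531 against 207 to 265 CPM in CD4 and 389.7 to 549 against 269 to 344 CPM in CD8 T cells. Of its measured genes 1, Bst2, was higher in 6 of 6 mice in each lineage, and Siglech, Klk1 and Ly6d were at 0 in the members of both. The part of these markers in the members' values was not tested. In CD8 members the lowest genes were of mixed housekeeping roles, among them Mcm5, of the replicative helicase (4.25 ± 6.68 against 20.8 ± 2.49 CPM), and Nip7, of ribosome assembly (21.98 ± 4.64 against 48.6 ± 3.38 CPM). A low level over few cells rests on few UMIs, and Lyz2 had 4 UMIs in all CD4 members.

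No listed gene stood further above its level in other T cells in 1 lineage than in the other in all 6 mice. For each of 113 listed genes the ratio in CD4 members was set against that in CD8 members of the same mouse. The median difference (CD4 minus CD8) was 0.10. Ddx60 (1.30 ± 1.68, mean ± SD, higher in CD4 members in 5 of 6 mice), Ifit2 (1.37 ± 2.16, mean ± SD, higher in CD4 members in 4 of 6 mice) and Gbp6 (−1.504 ± 2.06, mean ± SD, higher in CD4 members in 2 of 6 mice) were the examples with opposite leanings, and none had its mice on 1 side. The sums covered 11 to 25 CD4 and 7 to 25 CD8 members per mouse, and the absence of such a gene does not show that the lineages were alike. The levels from which the lineages started differed for some genes, as with Ly6a and Ifi27l2a above.

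The comparison of genotypes within the members asked whether deletion of the floxed gene in T cells goes along with another response. UMI counts of the members were summed per mouse and tested with edgeR's quasi-likelihood test and Benjamini-Hochberg adjustment over all genes tested. None of 3923 genes passed in all members (0% called, 152 at an unadjusted p under 0.05), none of 1780 in CD4 members (0%, 82 unadjusted) and none of 1454 in CD8 members (0%, 67 unadjusted), and DESeq2 called none either. With no filter on low counts the numbers called were 25, 5 and 40, and with a limit of 2 rule genes 12 passed in CD4 members.

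No listed interferon gene outside the rule passed the test between genotypes. In all members, Bst2 (log2 fold change −0.12, SE 0.169, adjusted p = 0.998) and Irf7 (log2 fold change 0.03, SE 0.254, adjusted p = 0.998) had these values in edgeR's test. Of 23 effectors tested, 11 were higher and 12 lower in Cre-positive mice with none called, and their median log2 fold change was −0.02. Of 10 interferon gamma GTPases, 8 were higher and 2 lower with a median of 0.17, again none called. The corresponding splits were 10 and 9 for 19 class I genes and 11 and 6 for 17 genes of receptors and signalling. In CD4 members 7 effectors were higher and 6 lower of 13, and in CD8 members 4 were higher and 8 lower of 12.

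**Figure D5:**
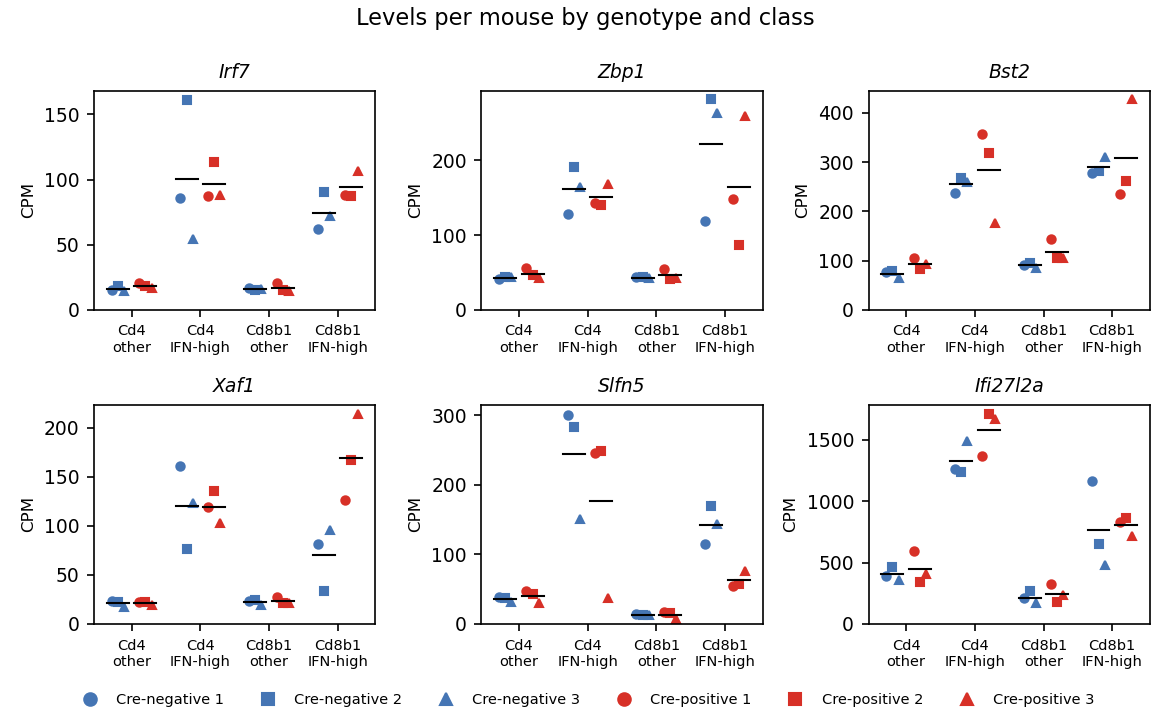
Level (CPM) of 6 interferon genes in each mouse, for members and other T cells of each lineage, bars at the group means, with Cre-negative mice in blue and Cre-positive mice in red. The group means of members lie above those of other T cells in both genotypes, and among members the genotypes are apart in Xaf1 and Slfn5 of CD8 T cells, neither of which passed the test.

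The genes of smallest p among those whose genotype groups do not overlap are given as values that did not pass. In CD4 members, Bcl2a1b, a survival protein of the Bcl2 family, stood at 21.5, 30.7 and 54.7 CPM in Cre-negative 1 to 3 and 119, 146 and 139 CPM in Cre-positive 1 to 3 (log2 fold change 1.97, SE 0.442, edgeR adjusted p = 0.0550). Every Cre-positive value lay above every Cre-negative one. Groups without overlap, in either direction, were found for 8.26% of the genes tested. Maf, a transcription factor of follicular and regulatory programmes, stood at 21.5, 53.7 and 13.7 CPM in Cre-negative 1 to 3 and 277, 97.3 and 103 CPM in Cre-positive 1 to 3 (log2 fold change 2.15, SE 0.526, edgeR adjusted p = 0.294), again without overlap. Egr1, an early response gene of receptor signalling, stood at 215, 169 and 205 CPM in Cre-negative 1 to 3 and 87.1, 70.3 and 110.1 CPM in Cre-positive 1 to 3 (log2 fold change −1.14, SE 0.326, edgeR adjusted p = 0.379), with the Cre-positive mice lower and no overlap. Tnfsf8, the ligand of CD30, had an edgeR log2 fold change of 1.57 and an adjusted p of 0.345. Over the 12 alternative settings Bcl2a1b had an adjusted p of 0.02004 to 0.997 and passed in 3, and Maf passed in 5. With at least 2 rule genes as the limit, the log2 fold change of Tnfsf8 was −0.23 and that of Egr1 0.062.

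In all members the first gene named by this rule was Tiparp, an ADP-ribosyltransferase induced by the aryl hydrocarbon receptor, at 90.4, 57.7 and 37.5 CPM in Cre-negative 1 to 3 and 13.5, 26.3 and 31.9 CPM in Cre-positive 1 to 3 (log2 fold change −1.52, SE 0.381, edgeR adjusted p = 0.792). The groups did not overlap, as was so for 8.92% of genes tested. In CD8 members the 10 genes named by it included 2 of the response. Xaf1 stood at 81.2, 33.8 and 95.7 CPM in Cre-negative 1 to 3 and 126, 167 and 214 CPM in Cre-positive 1 to 3 (log2 fold change 1.15, SE 0.386, edgeR adjusted p = 0.915), higher in the Cre-positive mice. Slfn5, whose values are given above, was lower in the Cre-positive mice (log2 fold change −1.19, SE 0.396, edgeR adjusted p = 0.915). Neither overlapped between genotypes, which held for 10.7% of genes tested, and neither passed. In other CD8 T cells Slfn5 stood at 7.53 to 17.00 CPM and Xaf1 at 19.7 to 27.9 CPM across the 6 mice.

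Whether the genotype effect in members differed from that in other T cells was tested as an interaction, with the mouse as a block. In CD4 T cells none of 10220 genes passed (0%, 402 at an unadjusted p under 0.05, DESeq2 also 0), and Maf was among the genes of smallest adjusted p, 0.111. In CD8 T cells 4 of 10030 passed (0.0399%), Cybb, Fcer1g, Wfdc17 and Pdia6, all lower in the Cre-positive members relative to other CD8 T cells (edgeR adjusted p = 2.50e-04, 0.0173, 0.0173 and 0.0368). DESeq2 called 0 in CD8 T cells. Without Cre-negative 1, edgeR called 1 gene, which was higher in the Cre-positive members relative to other CD8 T cells. Cybb, Fcer1g and Wfdc17 are expressed by macrophages and Pdia6 is a protein disulfide isomerase of the secretory pathway. Cybb and Fcer1g overlap between genotypes and were named because they passed. Most UMIs of Cybb, Fcer1g and Wfdc17 lay in 1 cell. A CD8 member of Cre-negative 1 with 43490 UMIs held 61 of the 65 Cybb UMIs of CD8 members, 59 of 60 of Fcer1g, 40 of 42 of Wfdc17 and 23 of 47 of Pdia6. It also held 859 of their 868 Lyz2 UMIs, and was not among the cells scored as doublets. Summed over the monocyte and macrophage list, CD8 members had 0 to 4572 CPM per mouse and other CD8 T cells 11.5 to 33.9 CPM. No fit left out that cell alone. With the 4 members over 20000 UMIs and the other cells over that depth left out, none of 9842 genes passed in CD8 T cells (smallest adjusted p 0.863).

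Gh, the growth hormone gene, was found in 4 members (1.37%), 1 in Cre-positive 2 and 3 in Cre-positive 3, and in 2.09% of other T cells. In other T cells it was found in 0, 0 and 0.0156% of Cre-negative 1 to 3 and in 2.78, 4.01 and 5.10% of Cre-positive 1 to 3. The members with a UMI thus came from the mice with the highest shares in other T cells.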

How the data were processed

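Single cells of 6 pancreatic lymph nodes, 1 library per mouse, were measured with 10x Genomics chemistry. The authors deposited raw UMI counts per gene and barcode, for which the submitters' processing notes name Cell Ranger 6.1.2 and the build mm10. Which annotation release was used is not given in the sources used here. The floxed gene and certain others are not reported. The files held 59680 barcodes and 31053 features, and positions were taken by Ensembl identifier from GENCODE M21 (31011 matched). Promoter sequences are from RefSeq on GRCm38.p6.

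Barcodes with at least 500 UMIs, 300 genes and at most 10% mitochondrial UMIs were kept (56310). No clustering was used. Scrublet, in scanpy 1.11.5, marked the highest-scoring 0.8% of cells per 1000 barcodes as doublets, which were removed only in an alternative. The members and the gene lists were chosen with earlier results of these data known.

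Counts were summed per mouse and class. Members against other T cells were described without a test. Genotypes were compared with edgeR 4.0.16 in R 4.3.3 (TMM, filterByExpr, quasi-likelihood F test, Benjamini-Hochberg at 0.05), with DESeq2 1.42.0 as an alternative, and shares with exact permutation tests in scipy 1.17.1. SE is the fold change over the root of F. The edgeR step was tested on simulated data in which 200 genes were drawn to change, of which those past the low-count filter were scored. Named genes are the rule genes, list members, Gh, the 15 highest and 10 lowest genes per lineage by the ratio nearest to 0 (mean of 20 CPM or more), and, where under 10 genes pass a genotype test, the 10 of smallest p whose groups do not overlap at 5 CPM or more, with any other called gene where 5 or fewer were called, a part added after values were seen. Alternatives changed normalization, low-count filter, number of rule genes, mitochondrial limit, doublets, depth, comparison cells, pseudocount and mice. Leaving out cells over 20000 UMIs was chosen after seeing the data.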

Additional observations from a re-analysis of the deposited data

Results flagged for a closer look

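In CD8 T cells the genotype effect in interferon-high cells differed from that in other T cells for 4 genes by the interaction test of edgeR. Cybb, the oxidase subunit of phagocytes, had an adjusted p of 0.00025. Its level in CD8 members was 310.5 CPM in Cre-negative 1 and 0 in each of the other 5 mice. Fcer1g, a receptor signalling chain of myeloid cells, had an adjusted p of 0.0173, with 281.9 CPM in Cre-negative 1, 5.49 CPM in Cre-positive 1 and 0 elsewhere. Wfdc17 had an adjusted p of 0.0173, with 191.1, 11.3 and 23.9 CPM in Cre-negative 1 to 3 and 0 in the Cre-positive mice. Pdia6 had an adjusted p of 0.0368, with 152.9, 33.8 and 95.7 CPM in Cre-negative and 21.95, 21.8 and 15.3 CPM in Cre-positive mice. The highest value of each lay in Cre-negative 1, in which 1 member of 43490 UMIs held 955 of the 958 UMIs of the monocyte and macrophage list found in that mouse's members. Without cells over 20000 UMIs none of the 4 passed, and DESeq2 called 0 genes in this comparison.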

How the results depend on the processing

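Differences in shares (Cre-positive minus Cre-negative, percentage points) were 0.141 for all T cells and 0.246 for CD4 T cells, and both stayed above 0 in all alternatives run. The replicate block, among these alternatives, cannot change a difference of group means. The CD8 difference of −0.0570 turned to 0.112 with at least 2 of 7 genes, 0.0143 after thinning, and 0.254, 0.0396 and 0.0897 without Cre-negative 1, Cre-positive 2 or Cre-positive 3. Leaving out 1 mouse gave 0.00507 to 0.213, 0.126 to 0.415 and −0.335 to 0.254.

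Genes called by genotype numbered 25 (all members), 5 (CD4) and 40 (CD8) with no low-count filter, and 12 in CD4 members with at least 2 of 7 genes. With 5% mitochondrial UMIs there was 1 in all members and 1 in the CD4 interaction. The CD4 interaction had 38 with at least 2 of 7 genes and 2 without cells over 20000 UMIs. The CD8 interaction had 0 with DESeq2, 12 without TMM factors, 11 with at least 2 of 7 genes and 0 without cells over 20000 UMIs. Leaving out 1 mouse gave 0 to 3 in all, 0 to 3 in CD4 and 0 to 5 in CD8 members, 0 to 8 in the CD4 interaction and 0 to 27 in the CD8 interaction (27 without Cre-negative 2, 15 without Cre-negative 3, 1 without Cre-negative 1, 0 without Cre-positive 1). The cause of these shifts was not tested.

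With at least 2 of 7 genes, log2 fold changes in CD4 members turned for Tnfsf8 (−0.23), Egr1 (0.062) and Polr2g (0.027), and in the CD4 interaction for S100a4 (−0.62) and Tnfsf8 (−0.19). In the CD8 interaction Fcer1g turned to 5.36 without cells over 20000 UMIs. Leaving out 1 mouse gave −12.74 to 5.80 for Fcer1g, turning without Cre-negative 1, and such fitted values of genes near 0 in a group are no bounds. Of 725 values of named genes under alternatives, 669 kept their direction and their side of the threshold. Most of these genes did not pass in the main fit, so keeping their side mostly meant not passing again. Of 73 counts of called genes under alternatives, 37 stayed within 1.5 times of their value and 36 did not. The 18 list counts stayed within 1.5 times of their value. Those with the other pseudocount had to stay the same, since a pseudocount does not change which of 2 levels is higher.

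Deviations of mice with the same number correlated at r = −0.186, −0.618 and 0.173 across 4899 genes, and those of other pairs at −0.338 to 0.523. So few values cannot decide whether the numbers pair the mice, and the labels do not say. With the replicate block the share differences were 0.141, 0.246 and −0.0570, which by arithmetic are the same as without it. In the gene tests with the block, 0 genes were called in all, CD4 and CD8 members. The sums covered 7 to 25 CD8 or 11 to 25 CD4 members per mouse, and p-values measure the spread between these mice only.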

Other observations

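Members with UMIs of neither Cd4 nor Cd8b1 numbered 77, and Trdc was found in 5 of them (6.49%, against 5.41% of other T cells with neither coreceptor). Zbtb16, the regulator of innate-like T cells, was found in 2 of them (2.60%, against 1.31%). These shares rest on few cells and were not tested. Cells that were neither T cells of the rule, Foxp3-positive T cells nor B cells met the limit of 3 rule genes in 55 of 7484 cases.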
